A study of Mus musculus with 19 samples.

Results

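Seminal vesicle secretory genes were followed in every sample of an RNA sequencing series on the conversion of fibroblasts to prostate tissue. The genes were given by name, as 8 rows of 23284 in each of 2 deposited tables: Svs1, Svs2, Svs3a, Svs3b, Svs4, Svs5, Svs6 and Pate4. They were named with earlier results of these data known, by a rule that sets no threshold on a value. The series holds 7 renal grafts, 6 prostate samples and 6 samples of mouse embryonic fibroblasts (MEFs), all on a C57BL/6 background per the labels. Each graft was a recombinant of induced mouse epithelial cells with rat urogenital mesenchyme, grown for 6 weeks in a nude mouse. The prostates are labelled with 6 weeks, and the MEFs, derived from E13.5 embryos, carry the allele Nkx3-1tm2(LacZ)Mms /+. Per the study's methods, the induced cells came from MEFs that had received reprogramming factors, the hosts were male and received testosterone, and some grafts were made from cells that also received further transcription factors. The study's materials name grafts 1 to 5 as made from cells with the added factors and do not name grafts 6 and 7. The study's methods also list sequenced grafts of induced cells without these factors. By elimination grafts 6 and 7 are the grafts without the added factors, although their labels do not state it. The labels of the 7 grafts are alike, so they were kept as 1 group, and for grafts 6 and 7 a difference in the cells cannot be told apart from the separate table. Grafts 1 to 5, the prostates and the MEFs are in the first table. Grafts 6 and 7 are in the second table, which was normalised separately, so no test was run across the tables.

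The seminal vesicle and the prostate lie side by side and both depend on androgen, but they arise from different ducts. The seminal vesicle buds from the Wolffian duct, which also gives the epididymis and the vas deferens, and the prostate buds from the urogenital sinus. In rodents the seminal vesicle epithelium secretes a small number of very abundant proteins. Svs2 and the paired Svs3a and Svs3b are relatives of the human semenogelins and are substrates of the prostatic transglutaminase Tgm4, which cross-links them into the copulatory plug. Svs4, Svs5 and Svs6 are small, quickly evolving secreted proteins of the same gene family. Svs1 belongs to the copper amine oxidases, and Pate4 encodes a small protein of the Ly6 and PATE family that is also known as a caltrin.

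The 6 genes Svs2 to Svs6 lie together on mouse chromosome 2, within 98.5 kb from base 164061665 to base 164160132 of build mm9. From low to high coordinate their order is Svs2, Svs3b, Svs4, Svs3a, Svs6 and Svs5, the first 3 on the minus strand and the last 3 on the plus strand. Svs1 lies apart on chromosome 6 (bases 48936860 to 48941724, plus strand) and Pate4 on chromosome 9 (bases 35414678 to 35419520, minus strand). Their first 30 coding bases, read from the GENCODE M1 transcripts on mm9, are shown because they set the family apart from the other members. Capitals mark bases that are shared with all 6 genes of the chromosome 2 cluster, at 10 of the 30 positions. These positions were taken from the 6 genes themselves, so their full match was fixed in advance, and they include the ATG start codon.
Svs2: ATGAagtCctctgtcTTcgtcCTttcTctg
Svs3a: ATGAagtCcatcttcTTcagcCTttcTctg
Svs3b: ATGAagtCcatcttcTTcagcCTttcTctg
Svs4: ATGAattCtaccagtTTgttcCTcttTtct
Svs5: ATGAgtcCcaccagcTTcttcCTcctTaca
Svs6: ATGAgtcCcaccagcTTctttCTcctTaca
Svs1: ATGAgcctggtaggaaggacctTggtTctg
Pate4: ATGAattCagtgacgaaaatcagcacactg

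Svs1 held 6 of these 10 bases and Pate4 held 5, the start codon included in both. Over the whole coding sequence, Svs3a and Svs3b were 98.7% identical, and the remaining 14 pairs of the cluster were between 22.8% and 54.7% identical. Of the 50-base stretches of the Svs3a transcript, 472 of 1146 (41.2%) also occur in Svs3b, and no other pair of the cluster shared one. Reads on Svs3a and Svs3b can therefore fall on either gene, and their separate values are uncertain.

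Promoter sequence was available for 7 members (RefSeq, GRCm38.p6, 250 bases before to 50 after the start site). The letters TATAAA on the transcribed gene's own strand were found between 40 and 16 bases before the start site in 5 of the 7, against 2.0% of 32851 promoters. The 30-base windows around them are shown, with TATAAA in capitals, because the shared stretch divides the members in a way that their values can be set against.
Svs3a, chr2:164289229-164289258, plus strand: gcaaagaacaTATAAAtgagaagatcagct
Svs3b, chr2:164256652-164256681, minus strand: gaaaagaacaTATAAAtgagaagatcagct
Svs4, chr2:164278316-164278345, minus strand: ctgagaaataTATAAAttaagaactcagct
Svs5, chr2:164332727-164332756, plus strand: caaggaaataTATAAAggagaatcttagct
Svs6, chr2:164316709-164316738, plus strand: caaggaaataTATAAAggagtatcttagct

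The element began 28 bases before the start site in Svs3a, Svs3b, Svs4 and Svs5 and 32 bases before it in Svs6. Svs1 and Svs2 did not hold these letters there, although Svs2 held them at 2 places elsewhere in its 300 bases. The letters TGTTCT, part of the site that steroid receptors bind, searched on both strands over the 300 bases, were found in 5 of the 7 members (Svs1, Svs3a, Svs3b, Svs5 and Svs6), against 19.0% of all promoters. These matches describe the letters only. They did not sort the members by level, since Svs2, with neither element in these windows, stood among the highest genes in grafts, and Svs3a and Svs6, with both, stood among the lowest.

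On the log2 scale of the tables, no reads corresponded to a value of -0.31, and low values carry a scatter (SD 1.07 to 1.12 at 0 reads). The value that 3 reads give was taken as the limit of detection, 1.68 to 2.34 in the first table, 3.12 in graft 6 and 2.70 in graft 7. Estimated reads on genes ran from 16767292 to 26152345 per sample in the first table and were 6629665 and 9662059 in grafts 6 and 7. Since the scatter is about 1, a value within about 1 of the limit could not be told from none. All 8 prostate secretion markers were above the limit in each of the 6 prostates, all 5 fibroblast markers in each MEF sample and all 4 epithelial markers in each graft. MEFs 1 to 4 also held prostate secretion transcripts, at 69.8 to 226.6 reads summed over the list per 1000000 reads on genes (RPM) against 8.94 and 8.25 in MEFs 5 and 6. In tissue samples such as these, fewer cells of a type and less RNA per cell cannot be told apart.

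Which grafts expressed seminal vesicle secretions was addressed first. All 8 genes were above the limit in grafts 2 and 3, and the same 4 of them, Svs2, Svs4, Svs5 and Pate4, in grafts 1 and 6. Grafts 4, 5 and 7 had 3, 2 and 0 genes above it, none of them by more than 1. Svs1 in graft 3, at 2.77 against a limit of 1.83, was also above by less than 1. It could not be told from none there.

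**Figure D1:**
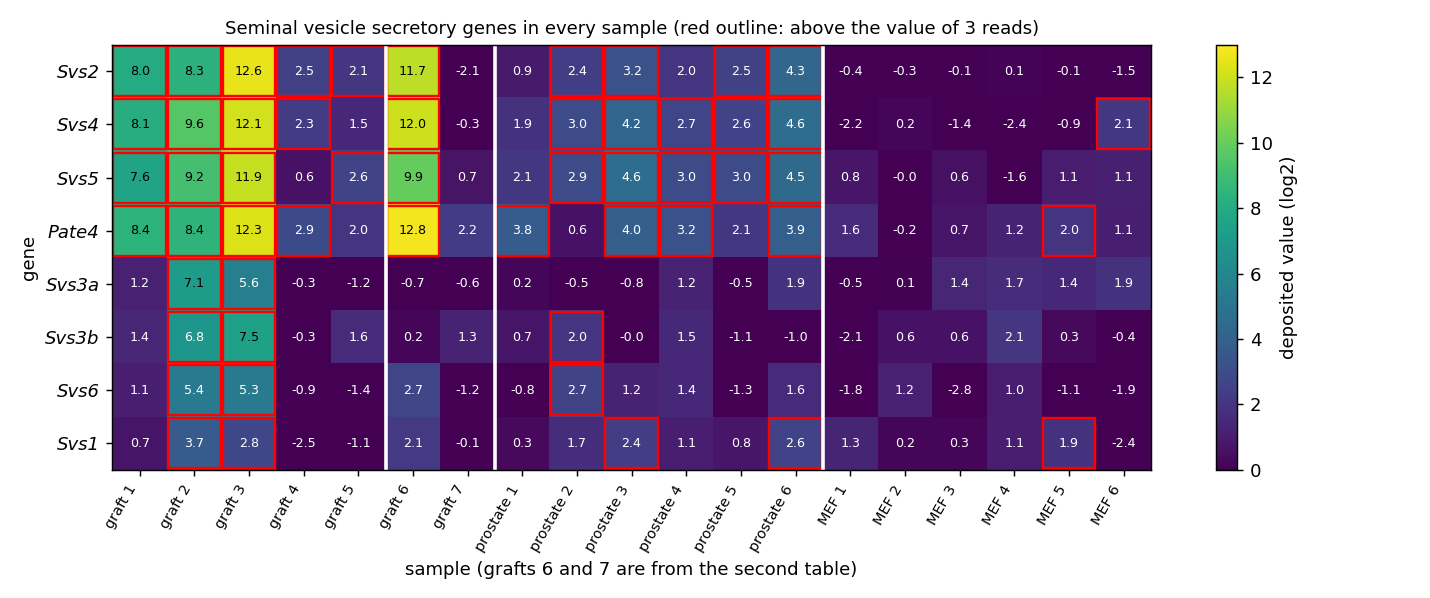
Deposited log2 value of each seminal vesicle secretory gene (rows) in each of the 19 samples (columns), written in the cell and shown by colour, with a red outline where it is above the value of 3 reads in that sample. Svs2, Svs4, Svs5 and Pate4 stand at 7.59 or higher in grafts 1, 2, 3 and 6, Svs3a, Svs3b and Svs6 at 5.35 or higher in grafts 2 and 3 alone, and no prostate or MEF value exceeds 4.65.

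Summed over the 8 genes, graft 3 held 1406 RPM (95% exact interval 1390 to 1423), graft 6 held 981 (957 to 1005), graft 2 held 159 (154 to 164) and graft 1 held 75.2 (71.7 to 78.8). Grafts 4, 5 and 7 held 0.898, 0.839 and 0.294 RPM, so the grafts with the highest and the lowest sum differed by more than 3 orders of magnitude. These intervals cover counting error only. The prostates held 0.864 to 4.11 and the MEFs 0.0828 to 0.374 RPM, which places graft 4 within their range and graft 5 just below it.

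Svs2, the main structural protein of the plug, had log2 values of 7.99, 8.33, 12.58, 2.49 and 2.05 in grafts 1 to 5, and 11.72 and -2.12 in grafts 6 and 7. It was between 0.92 and 4.27 in the prostates, with a median of 2.45, and between -1.55 and 0.11 in the MEFs, with a median of -0.18. Grafts 1, 2, 3 and 6 were thus above every prostate, grafts 4 and 5 lay within the range of the prostates, and graft 7 was below all of them. Levels of grafts 6 and 7 are set beside the others without a test, since they come from the other table.

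Svs4, a small secreted protein of the cluster, had values of 8.11, 9.56, 12.12, 2.31 and 1.48 in grafts 1 to 5, and 12.03 and -0.29 in grafts 6 and 7. The prostates ranged from 1.88 to 4.62 with a median of 2.85, and the MEFs from -2.44 to 2.13 with a median of -1.12. The same 4 grafts were above every prostate, and the single MEF value over 0.25 was that of MEF 6.

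Svs5, its neighbour in the family, stood at 7.59, 9.18, 11.85, 0.62 and 2.64 in grafts 1 to 5, and at 9.93 and 0.71 in grafts 6 and 7. Its prostate values were between 2.09 and 4.65 with a median of 3.0, and its MEF values between -1.60 and 1.12 with a median of 0.69. Prostates and MEFs did not overlap for this gene, and grafts 4 and 7 lay among the MEFs.

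Pate4, which lies on another chromosome than the cluster, had values of 8.39, 8.43, 12.33, 2.94 and 2.02 in grafts 1 to 5, and 12.76 and 2.24 in grafts 6 and 7. Prostate values were between 0.65 and 3.96 with a median of 3.50, and MEF values between -0.21 and 1.97 with a median of 1.16. It was high in the same 4 grafts as the Svs genes, and it was the highest of the 8 in graft 6.

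Svs3a and Svs3b, the semenogelin-like pair, were high in fewer grafts. Svs3a was at 1.17, 7.11, 5.59, -0.25 and -1.24 in grafts 1 to 5, and at -0.65 and -0.60 in grafts 6 and 7. Svs3b was at 1.38, 6.84, 7.46, -0.26 and 1.55 in grafts 1 to 5, and at 0.16 and 1.25 in grafts 6 and 7. Of the grafts, only 2 and 3 exceeded the limit of detection for either gene, although graft 6 held the second highest Svs2 value of all samples. In the prostates Svs3a ran from -0.84 to 1.90 and Svs3b from -1.13 to 2.00, and in the MEFs they ran from -0.46 to 1.89 and from -2.09 to 2.06.

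Svs6, a further small protein of the cluster, followed the pair: it was at 1.11, 5.42, 5.35, -0.88 and -1.44 in grafts 1 to 5, and at 2.70 and -1.24 in grafts 6 and 7. Prostate values were -1.33 to 2.66 with a median of 1.34, and MEF values -2.76 to 1.19 with a median of -1.46. Of the grafts, 2 and 3 were again the ones above the limit.

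Svs1, the amine oxidase, was low everywhere. Its values were 0.72, 3.73, 2.77, -2.48 and -1.08 in grafts 1 to 5, and 2.13 and -0.14 in grafts 6 and 7. It ran from 0.35 to 2.61 in the prostates with a median of 1.38, and from -2.45 to 1.89 in the MEFs with a median of 0.67. The highest, in graft 2, corresponded to about 18 reads, and the 3 groups overlapped.

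**Figure D2:**
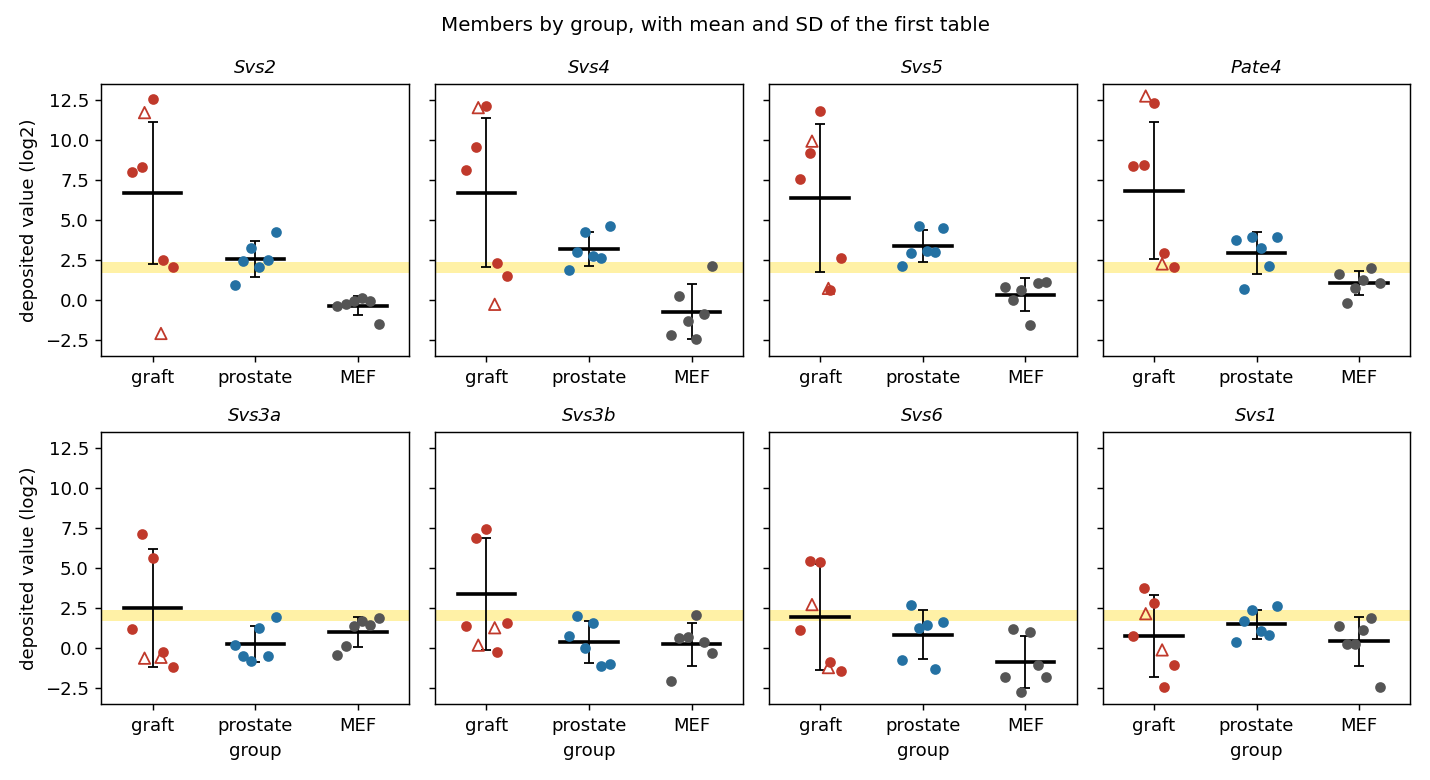
Deposited log2 values of the 8 genes by group. Filled circles are samples of the first table with their mean and SD (5 grafts, 6 prostates, 6 MEFs), open triangles are grafts 6 and 7 of the second table, and the yellow band spans the values of 3 reads in the first table. In the upper row each set of 5 grafts is split between values of at least 7.59 and values of at most 2.94, and the SD of the grafts is 4.29 to 4.65.

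The level of one gene against another, set per kb of exon, differed among the 4 grafts in which the genes were high. In graft 3 the order of normalised reads per kb was Svs4 (6099), Svs5 (5725), Pate4 (4830), Svs2 (3075), Svs3b (139.9), Svs6 (73.2), Svs3a (38.9) and Svs1 (1.91). In graft 6 it was Pate4 (6509), Svs4 (5733), Svs2 (1701) and Svs5 (1512), with the other members at or below the limit. Svs4 was therefore the first or second gene per length in both, while Svs5 fell from the second place to the fourth. In graft 2 Svs4 (1028) and Svs5 (893.5) were followed by Pate4 (322.0) and Svs2 (161.2), and in graft 1 Svs4 (375.6) was followed by Pate4 (313.6), Svs5 (295.3) and Svs2 (127.5). These orders come from 1 library each, without a replicate of the graft.

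As a share of the estimated reads on the 8 genes, Svs2, Svs4, Svs5 and Pate4 made up 99.7% (exact 95% interval 99.3 to 99.9) in graft 1, 98.6% (98.5 to 98.8) in graft 3 and 99.95% (99.87 to 99.99) in graft 6. Graft 2 departed from this, with 86.8% (85.6 to 87.9), and its share from Svs3a, Svs3b and Svs6 was 12.7% (11.6 to 13.8) against 1.32% (1.19 to 1.46) in graft 3. Expressed on the log2 scale, Svs2 exceeded Svs3a by 1.22 in graft 2, by 6.98 in graft 3, and by at least 6.31 in graft 1 and 8.60 in graft 6, where Svs3a was replaced by the value of 3 reads. The pair Svs3a and Svs3b also changed places, with 211 against 175 estimated reads in graft 2 and 66 against 247 in graft 3, within the doubt about reads that match both. Pate4 supplied 44.8% (43.6 to 46.0) of the reads in graft 6 and 14.95% (13.8 to 16.2) in graft 2.

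**Figure D3:**
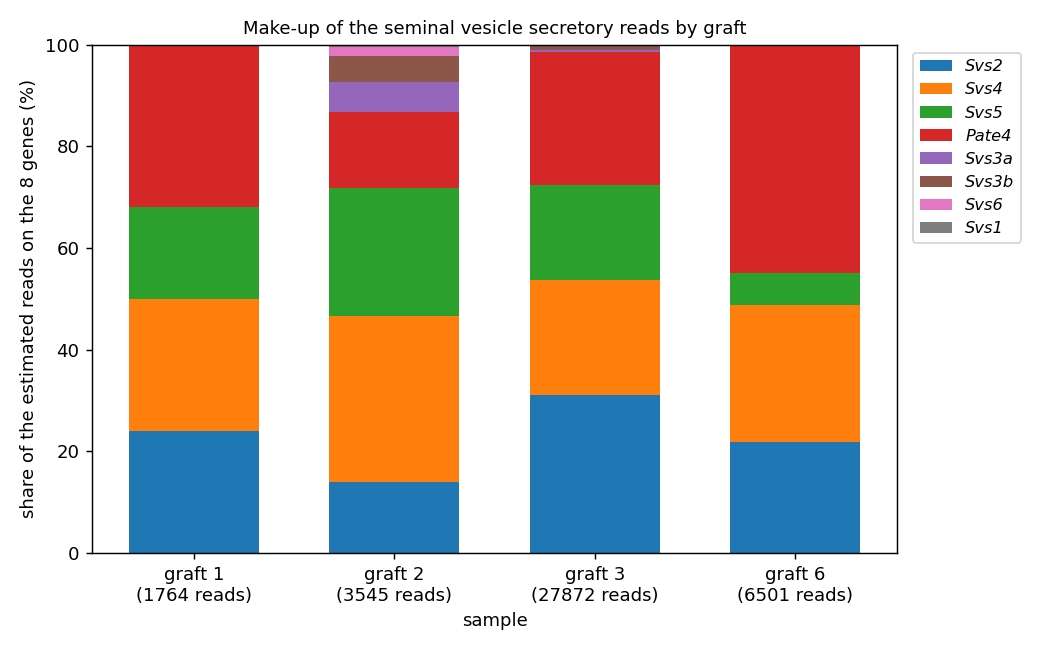
Share of the estimated reads on the 8 seminal vesicle secretory genes (percent, vertical axis) that each gene supplied in the 4 grafts with more than 1000 such reads, given under each bar. Svs3a, Svs3b and Svs6 are visible in graft 2, where they reach 12.7%, and Svs5 is smallest in graft 6, at 6.31%.

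Between the 2 grafts in which all members were above the limit, the changes were unequal. From graft 2 to graft 3 the normalised reads of Svs2 were 19.1 times as high, of Pate4 15 times, of Svs5 6.41 times and of Svs4 5.93 times, whereas Svs6 was at 0.953 times, Svs3a at 0.341 times and Svs3b at 1.54 times. From graft 1 to graft 3 the rise was nearly even over the 4 abundant genes, between 15.4 times for Pate4 and 24.1 times for Svs2. Svs2, Svs4, Svs5 and Pate4 were thus high in the same 4 grafts, whereas Svs3a, Svs3b and Svs6 were above the limit in only 2 of these. The proportions among the 4 abundant genes were nearly kept from graft 1 to graft 3 but not from graft 2 to graft 3.

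Along chromosome 2 genes at the limit and genes far above it alternated in grafts 1 and 6. Svs3b, at a distance of 19.6 kb from the lower end of Svs2, and Svs3a and Svs6, at 54.5 and 81.7 kb, were at or below the limit between Svs2, Svs4 (41.3 kb) and Svs5 (97.6 kb), which were at 7.59 or above. The whey acidic protein genes on both sides of the cluster, which encode secreted protease inhibitors, followed the split between grafts to different degrees. Wfdc15b, the nearest to Svs2, was at 10.79, 8.86, 9.62 and 8.99 in grafts 1, 2, 3 and 6 and at 0.53, 6.64 and 4.75 in grafts 4, 5 and 7, so that the same 4 grafts were the highest. Slpi was between 8.37 and 10.90 in all 7 grafts and Wfdc2 between 8.59 and 13.70, including grafts 4 and 7, in which the Svs genes were near the limit. Wfdc12, which lies on the Svs2 side of the cluster, was highest in grafts 6 (12.08) and 1 (11.23) and lower in graft 3 (6.09), although graft 3 had the most Svs2.

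**Figure D4:**
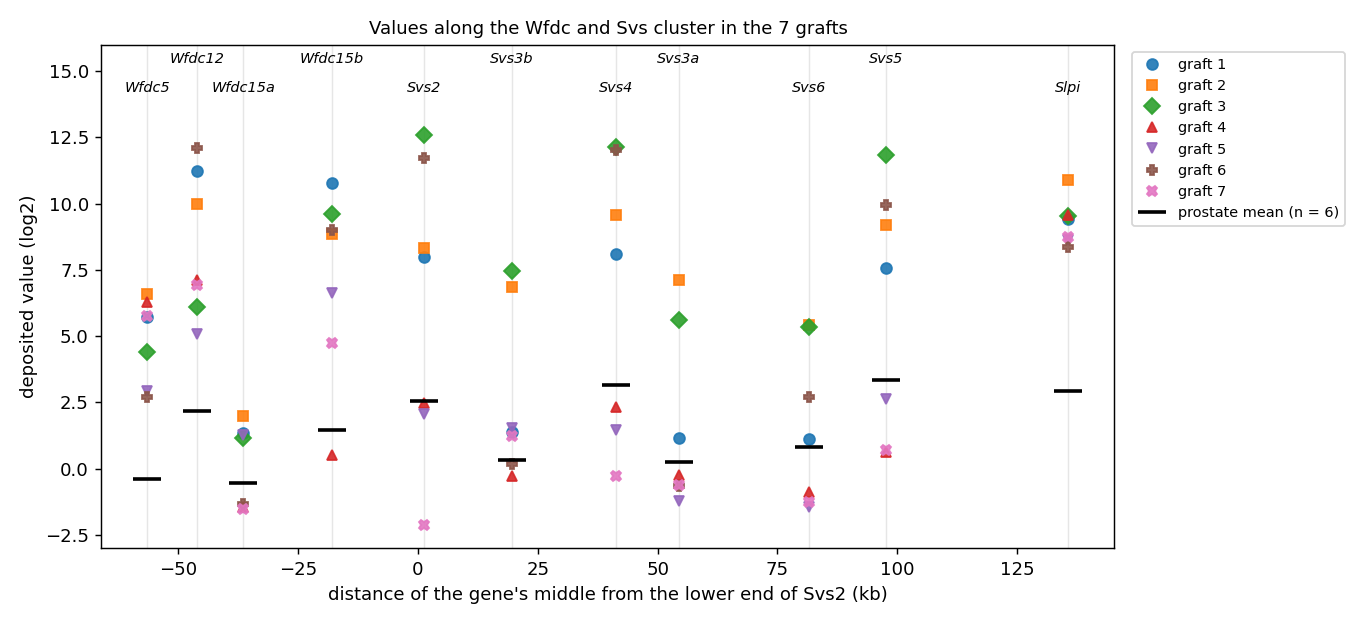
Deposited log2 value of each gene of the chromosome 2 cluster and its near neighbours in the 7 grafts (symbols) and as the mean of the 6 prostates (bars), placed by the distance of the gene's middle from the lower end of Svs2 in kb. Slpi stays between 8.37 and 10.90 in every graft, while Svs2 spans -2.12 to 12.58 and Svs3a is above 5 in grafts 2 and 3 only.

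Whether the members differed between prostate and grafts was tested with limma over the 16353 genes that averaged 10 or more on the linear scale in these samples. Of the 8 members 6 passed that filter (not Svs1 or Svs6), which they did through the grafts in which they were high, and 0 of the 6 were called at an adjusted p under 0.05 with a change of at least 1, beside 33.3% of all genes tested (23.0% lower in prostate). At an unadjusted p under 0.05, 2 of the 6 passed in limma, and in the exact permutation test of the means 0 of 8 did, the lowest p being 0.0736 where 0.00433 is the smallest possible. The mean difference was largest for Svs2, which was lower in prostate by a log2 difference of -4.13 ± 1.66 (SE, n = 6 and 5; limma adjusted p = 0.0527), and for Pate4 at -3.89 ± 1.64 (limma adjusted p = 0.0623). The remaining 4 ran from -2.24 for Svs3a to -3.54 for Svs4, with limma adjusted p between 0.0895 and 0.214. The grafts overlapped the prostates for every member, since grafts 4 and 5 lay among or below them. The result turned on these: without graft 4, 5 members were called lower in prostate, and without graft 5, 3 were, as were 3 when the MEFs were added to the fit. Over the fits that left out 1 sample, 3347 to 4151 genes of 16177 to 16404 tested were called lower in prostate. The share for the fit with the MEFs is not given here. The median over the 6 tested members was -3.30, and over all genes tested it was -0.11.

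Prostate was next set against MEFs to ask whether normal prostate carried these transcripts at all. The values were low, with 15.4 to 77.6 estimated reads in total over the 8 genes per prostate and 1.8 to 9.3 per MEF sample. None of the 8 passed the filter in this comparison, in which 48.3% of 14560 genes were called. In the exact two-sided permutation test, which needs no filter, Svs2 was higher in prostate by 2.94 (2.56 ± 1.13 against -0.38 ± 0.60, SD, n = 6 and 6, p = 0.00216, the smallest p possible) and Svs5 by 3.04 (3.36 ± 1.00 against 0.32 ± 1.03, exact p = 0.00216). Svs4 was higher by 3.94 (exact p = 0.00433) and Pate4 by 1.87 (exact p = 0.0216). The other 4 members had exact p between 0.0801 and 0.855, and Svs3a was on average lower in prostate, by -0.76. These p-values are for 8 single genes and were not adjusted. The MEF mean of Svs2 lay below the value of 0 reads (-0.31). Outside prostates 3 and 6, Svs2, Svs4 and Svs5 lay within about 1 of the limit or below it. The sizes of these log2 differences therefore depend on the scatter of low values. For Svs2 and Svs5 the groups did not overlap, which was 2 of 8 members (25%), close to the 25.6% of all genes that did not overlap in this direction. With the filter removed limma called the same 4 genes, with adjusted p from 0.000256 for Svs2 to 0.0161 for Pate4. The share of all genes called in that fit is not given here, so this count is no measure of the members.

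Within the prostates the low values were not even. Prostates 3 and 6 had 72 and 78 estimated reads on the members, against 15 to 31 in the other 4. In them Svs2 was 3.24 and 4.27, Svs4 was 4.23 and 4.62, and Svs5 was 4.65 and 4.48, the highest of the 6 in each case. Slpi, a protease inhibitor of the neighbouring gene cluster, ran the other way and was -1.70 and -1.33 in prostates 3 and 6 against 3.76 to 6.24 in the other 4. The kidney marker list, for comparison, summed to 0.29 and 0.13 RPM in these 2 samples and was highest, at 4.66, in prostate 1.

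Pairs of members were correlated over the 6 prostates, whose estimated reads on genes ran from 16767292 to 22512393. Svs4 and Svs5 had Pearson r = 0.976 (exact permutation p = 0.0306) and Spearman rho = 0.771 (exact p = 0.103), and Svs1 and Svs4 had r = 0.974 (exact p = 0.00278) and rho = 1 (exact p = 0.00278). Svs2 and Svs4 had r = 0.955 (exact p = 0.0111) and rho = 0.829 (exact p = 0.0583). Without the 2 samples farthest from the median of the first gene, r was 0.927, 0.933 and 0.905 for these 3 pairs, over 4 samples. Outside prostates 3 and 6, Svs2, Svs4 and Svs5 also lay within about 1 of the limit or below it. Nothing is therefore read from r over 4 samples. Of the 28 pairs 21 had a positive r and 6 an exact p under 0.05, but 0 passed after Benjamini-Hochberg adjustment (lowest adjusted p = 0.0778, exact permutation). Without the 2 farthest samples 14 of 28 stayed positive. Pate4 did not join the group, with r of 0.172 with Svs2, 0.321 with Svs4 and 0.384 with Svs5 (exact p = 0.736, 0.575 and 0.478). Svs1, Svs3a, Svs3b and Svs6 were within about 1 of the limit or below it in the prostates and could not be told from none there, so nothing is read from their pairs, that of Svs1 and Svs4 with the lowest p included.

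Grafts were also compared with MEFs, the cells from which the induced epithelial cells derive. Svs2 was higher in grafts by 7.07 ± 1.65 (SE; limma adjusted p = 0.00295), Svs4 by 7.48 ± 1.84 (limma adjusted p = 0.00414), Pate4 by 5.75 ± 1.60 (limma adjusted p = 0.00823) and Svs5 by 6.05 ± 1.76 (limma adjusted p = 0.0104), each over 5 grafts and 6 MEF samples. These 4 were called of 6 that passed the filter, beside 41.9% of 16121 genes, 29.9% of them higher in grafts. Since they passed through the grafts, the share is no measure of the members. Svs3b, at 3.19 ± 1.45 (limma adjusted p = 0.0712), and Svs3a, at 1.48 ± 1.45 (limma adjusted p = 0.383), were not called. The direction held in 5 of 5 grafts against every MEF sample for Svs2 and Pate4, which was 2 of 8 members beside 21.3% of all genes, and the lowest grafts, 2.05 and 2.02, were at the limit. With MEFs 5 and 6 alone, the samples with the least prostate transcript, 0 members were called and the differences of the 4 were 5.29 to 7.50.

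Other secreted genes known from the seminal vesicle did not share one pattern. Sval1, a relative of the seminal vesicle antigen Sva, was highest in grafts 2 (6.82) and 3 (7.70), the grafts with all 8 members above the limit. It was between 1.76 and 4.0 in grafts 1, 4 and 5. Sva was at 5.47 in graft 2 and no higher than 2.63 in the other 6. Sval2 was at 2.87 to 3.42 in grafts 1 to 5, on about 8 to 15 reads. In the prostates it was at -2.17 to 1.58, at or below the limit in each. The groups did not overlap (exact p = 0.00433, not adjusted), nor did they for Spink3 and Ceacam10. The share of all genes without overlap between prostate and grafts is not given here, so this is no measure of the companions.

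Ceacam10, an immunoglobulin-family glycoprotein of seminal plasma, was at 8.72 and 8.50 in grafts 4 and 5, the grafts in which the members were near the limit, at 6.10 to 7.28 in grafts 1 to 3, and at 3.84 and 5.69 in grafts 6 and 7. It was lower in prostate than in grafts by -2.71 ± 0.45 (limma adjusted p = 0.000446). Spinkl was at 4.02 to 4.94 in the prostates, 1.95 to 5.51 in grafts 1 to 5 and at most 0.44 in grafts 6 and 7, so graft 6, with high Svs2, lacked it. Spink3, a secreted protease inhibitor that the prostate also makes, was at 16.51 to 18.14 in the prostates and 7.45 to 11.34 in grafts 1 to 5. Of the 7 companion genes 4 were tested between prostate and grafts, with 1 higher (Spink3) and 1 lower (Ceacam10), beside 33.3% of all genes called. Only 3 of the 7 passed the filter in prostate against MEFs, and all 3 were higher, beside 48.3% of all genes called. Grafts against MEFs also gave 3 of 3 higher, beside 41.9%. Except for Spink3, the tested genes passed against MEFs through the group in which they were high, so these 2 counts are no measure of the companions.

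The genes beside the members were described from the same tests. Between prostate and grafts, Slpi, Wfdc2, Wfdc5, Wfdc12 and Wfdc15b were lower in prostate, by -4.63 for Wfdc2 to -6.69 for Slpi (limma adjusted p 0.000247 to 0.00779), and Acrv1, an acrosomal gene near Pate4, was higher by 6.27 (limma adjusted p = 8.19e-06). Acrv1 was thus at 6.74 to 7.20 in every prostate, while Pate4 on the same chromosome was at most 3.96. Of 6 neighbours tested, 1 was called higher and 5 lower, beside 33.3% of all genes called (23.0% lower in prostate). Wfdc5, Wfdc12 and Wfdc15b passed the filter through the grafts and Acrv1 through the prostates. The count is therefore no measure of the neighbours. Pate2 was between 0.08 and 4.22 in all samples and Wfdc15a was at most 1.99. Tgm4, the prostatic enzyme that acts on Svs2, was at 17.49 to 19.04 in the prostates, at 7.70 to 9.92 in grafts 1 to 5, and at 12.70 and 6.74 in grafts 6 and 7. It was higher in prostate than in grafts by 9.68 ± 0.42 (limma adjusted p = 9.84e-08).

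Among the amine oxidases related to Svs1, Aoc1, the diamine oxidase, was at 8.63, 9.89 and 9.90 in grafts 1 to 3 and at 4.92 and 4.50 in grafts 4 and 5. In grafts 6 and 7 it was 7.62 and 7.49, although the members were high in graft 6 and near the limit in graft 7. Aoc1 was lower in prostate than in grafts by -5.71 ± 1.00 (limma adjusted p = 0.000616), whereas Aoc3 was higher by 2.60 (limma adjusted p = 0.0021), Aoc2 was not called, and Doxl2 was at most 1.94 in any sample.

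Markers of other tissues were measured beside the members, and their part in the results was not tested. Epididymis and vas deferens markers, which arise from the same duct as the seminal vesicle, summed to 385.0, 45.9, 67.1, 9.45 and 13.2 RPM in grafts 1 to 5 and to 102.3 and 7.92 in grafts 6 and 7, with 2 to 6 of 8 above the limit. Crisp1, the leading one, was at 12.17, 8.51, 9.42, 6.68 and 6.96 in grafts 1 to 5 and at 10.63 and 6.13 in grafts 6 and 7, while Lcn8 and Lcn9, which mark the epididymis, were below the limit in every graft. The 4 grafts with high members were thus also the 4 with the highest sum of this list, in another order. Prostates and MEFs had sums of at most 0.87.

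Kidney markers, from the host organ under whose capsule the grafts grew, summed to 5809, 80.8, 12117, 444.7 and 10129 RPM in grafts 1 to 5 and to 1936 and 169.3 in grafts 6 and 7. They were highest in graft 3, which also held the highest sum of the members, and higher in graft 6 than in graft 7, as the members were. They were also high in graft 5, where the members were near the limit, and lowest in graft 2, where all 8 members were above it. Prostate secretion markers summed to 89.6 to 428.8 in grafts 1 to 5, to 464.0 and 11.4 in grafts 6 and 7 and to 83052 or more in the prostates. In graft 6 Tgm4 alone supplied 421.0 RPM of the sum, while Pbsn (2.17) and Sbp (-0.28) were below the limit of 3.12. Msmb, at 3.13, stood at that limit, and Spink3, Azgp1, Apof and Defb50 were above it.

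Regulators of the Wolffian duct did not follow the members. Hoxa10 was at 8.10 to 10.35 in grafts 1 to 5 and at 11.15 in graft 6, and Pax2, which the kidney also uses, was at 6.50 in graft 5 and 4.59 in graft 2. Graft 7 stood apart with Hoxa10 at 3.94, Hoxa11 at -1.11 and the urogenital sinus regulator Hoxd13 at 0.29, against 11.15, 8.55 and 9.99 in graft 6.

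**Figure D5:**
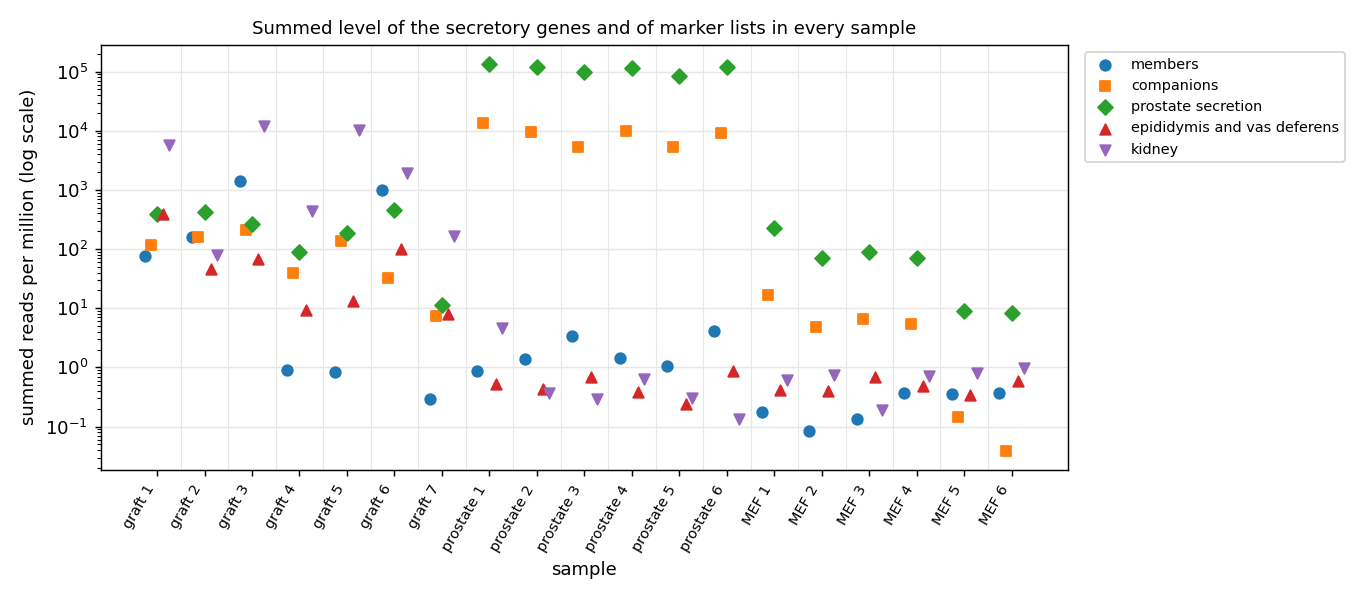
Summed RPM (log scale) of the 8 seminal vesicle secretory genes and of 4 marker lists in each of the 19 samples. The secretory genes span 0.294 to 1406 over the grafts and stay at or below 4.11 in prostates and MEFs, and the kidney list is highest in graft 3, at 12117, and lowest in graft 2, at 80.8.

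The genes whose values were most like the mean of the members over the 17 samples of the first table, among 16095 genes, were Pyy (Pearson r = 0.937), Art1 (0.927), Aldh1b1 (0.924), Btnl3 (0.923) and Cps1 (0.922). This is a description, since all 17 samples share the same grafts. Pyy, a gut peptide hormone, was at 3.48, 5.95 and 7.47 in grafts 1 to 3 and at most 0.64 in grafts 4 and 5, but at 4.17 in graft 6 and 2.12 in graft 7. Art1, an ADP-ribosyltransferase, was at 7.66 to 8.27 in grafts 1 to 3 and at 5.60 and 5.86 in grafts 6 and 7. Cps1, an enzyme of ammonia detoxification, was at 12.46 in graft 2 and 3.24 in graft 5, and at 6.34 and 7.51 in grafts 6 and 7. In the second table, which played no part in choosing them, none of Art1, Aldh1b1, Btnl3 and Cps1 was higher in graft 6 than in graft 7, and Pyy alone was. Over the 6 prostates, among 14484 genes, the most alike were Defb42 (r = 0.986), Rps6kb1 (0.979), Clcn3 (0.978), Lrrc29 (0.975) and Pdhb (0.973). This ranking is a description too, since among 14484 genes a high r over 6 samples can arise by chance, which was not tested. The mean also includes Svs1, Svs3a, Svs3b and Svs6, which could not be told from none in the prostates. Defb42, a beta-defensin, was at 2.70 to 4.39 in the prostates, at 7.98, 2.08, 4.59, -1.71 and 1.15 in grafts 1 to 5, and at 7.54 in graft 6 against -1.36 in graft 7.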

How the data were processed

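RNA of 7 grafts, 6 prostates and 6 MEF samples was sequenced on an Illumina HiSeq (single-end, TruSeq). The submitters' processing notes name bcl2fastq 1.8.4, TopHat, Cufflinks, DESeq and mm9, without versions for the others. The authors deposited log2 values normalised with DESeq, in tables of 17 and 2 samples. Values between 11.5 and 15 were whole reads times a unit of the sample (100% within 0.05 reads), from which reads and the value of 3 reads were estimated. Values below that range carry a scatter, and the reads given for them are estimates.

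The comparisons used limma (version 3.58.1, R 4.3.3; eBayes with trend) on the samples of both groups and the genes averaging 10 or more on the linear scale, with Benjamini-Hochberg adjustment over all genes tested. A call needed an adjusted p under 0.05 and an absolute log2 change of at least 1. Single members were tested by exact two-sided permutation (SciPy 1.17.1). The limma step was checked on simulated data. The labels do not say whether samples of a group came from separate animals or cultures, so p-values measure the spread between these samples. No 2 samples held identical values. The members and all lists were chosen with earlier results of these data known. Named were the members, 7 companion genes, the cluster neighbours, Tgm4, the amine oxidases, and the 5 genes most like the members' mean over 17 and over 6 samples; Btnl3 and the others of these are named by that rule, and other genes come from the marker lists. Aoc1 is listed as Abp1. For a gene with several RefSeq promoters, the one at the lowest coordinate was used. Pate4 has no promoter shown. Grafts hold rat mesenchyme and adjoin host kidney, and reads were not separated by source. Alternatives were a pseudocount of 1, other filters, quantile scaling, all 17 samples in the fit, no trend, and leaving out each sample.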

Additional observations from a re-analysis of the deposited data

Results flagged for a closer look

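Graft 6, in the table that no group comparison used, held 4 of the members above the limit of detection and above every MEF sample: Svs2 at 11.72, Svs4 at 12.03, Svs5 at 9.93 and Pate4 at 12.76. Graft 7 of the same table held none of them above it. The table holds no prostate or MEF sample, so the comparison with MEFs is between tables normalised separately.

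Among 24 sets of values (8 genes in 3 groups of the first table), 1 sample stood far from the others, Svs2 in MEF 6 at -1.55, where about 1.2 such sets would be flagged by chance. That value lies below the value of 0 reads, within the scatter of low values.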

How the results depend on the processing

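No paired analysis was possible because the labels give no replicate numbers that the groups share. Between prostate and grafts, 0 members were called, against 3 with all 17 samples in the fit and 0 to 5 on leaving out each sample (5 without graft 4, 3 without graft 5). Between prostate and MEFs, 0 members passed the filter and 4 were called without a filter, and 1 of the companion genes was called at a linear mean of at least 50, against 3. Between grafts and MEFs, 4 members were called, 4 to 5 on leaving out each sample, and 0 with MEFs 5 and 6 alone, an alternative added after the data were seen that leaves a group of 2. With those MEFs alone Svs2 was at 7.50 (limma adjusted p = 0.078), and Svs4, Svs5 and Pate4 at 6.10, 5.29 and 5.30 (limma adjusted p 0.153 to 0.196). Without a filter 6 companions were called between grafts and MEFs, against 3. The counts without a filter are given without the share of all genes called, and are no measure of the members or companions. The cause of these changes was not tested. No tested member changed direction under any of these settings, the pseudocount, the absence of a trend or quantile scaling. Quantile scaling moved the median log2 change of all genes from -0.11 to 0.12 (prostate over grafts), from 0.17 to 0.012 (prostate over MEFs) and from 0.26 to -0.14 (grafts over MEFs), and moved no count of members called. It turned the split of all calls, higher to lower, from 1683 and 3757 to 3176 and 2455, from 4044 and 2982 to 3313 and 3570, and from 4815 and 1942 to 2828 and 3830, in the same order. Grafts 6 and 7 have the fewest reads and the highest limits of detection, 3.12 and 2.70, and the members' values in the prostates rest on 15.4 to 77.6 reads summed over the 8 genes.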
